A study of Homo sapiens with 2 samples.

Results

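The ephrin A ligands are the 5 genes EFNA1, EFNA2, EFNA3, EFNA4 and EFNA5, taken by name out of 19881 protein-coding genes. Their OTX2 peaks were those that overlapped a GENCODE gene record in GRCh38 lengthened by 50 kb at both ends. EFNA4, EFNA3 and EFNA1 are neighbours on chromosome 1 and were treated as 1 locus, so the family gave 3 loci. These held 76 of the 137412 peaks, namely 21 at the chromosome 1 locus, 48 at EFNA5 and 7 at EFNA2. The peaks come from D283, an established medulloblastoma cell line, grown as untreated OTX2+ tumorspheres in a neural proliferation medium with N2, B27, EGF and bFGF. Chromatin pulled down with an OTX2 antibody (OTX2_ChIP, 1 library) was compared with chromatin from the same line taken without antibody (Input, 1 library). Binding was therefore described in 1 state of 1 line, and no value has a replicate error. RNA was not measured in these libraries, so the identity of the cells could not be checked against marker genes.

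Ephrin A proteins are held at the cell surface by a lipid (GPI) anchor and bind EPHA receptor tyrosine kinases on neighbouring cells. The signal runs in both directions, forward through the receptor and in reverse through the ligand and its membrane partners, and it commonly makes growth cones and cell borders retract. In the developing brain, EFNA2 and EFNA5 are known for graded expression that guides axons to their place on a target map. EFNA1 was first described as a gene induced by tumour necrosis factor in endothelial cells. OTX2 is a homeodomain transcription factor of the fore- and midbrain that recognises sites such as TAATCC and TAATCT.

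The RefSeq promoters of 3 members are shown because they differ in what was found on them: a peak over the EFNA1 start, peaks on both sides of the EFNA5 promoter, and no peak near EFNA2. Each sequence is the 250 bases before the RefSeq start (GRCh38.p14), read 5′ to 3′ on the strand of the gene, and capitals mark bases inside an OTX2 peak. EFNA1 is chr1:155127626-155127875 on the plus strand, EFNA2 is chr19:1285623-1285872 on the plus strand and EFNA5 is chr5:107670938-107671187 on the minus strand.
EFNA1: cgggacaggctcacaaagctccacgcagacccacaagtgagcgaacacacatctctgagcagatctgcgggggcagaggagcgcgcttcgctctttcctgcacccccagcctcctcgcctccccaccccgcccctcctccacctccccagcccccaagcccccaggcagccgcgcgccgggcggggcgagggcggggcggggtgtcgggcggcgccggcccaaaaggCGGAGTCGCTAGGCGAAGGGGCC
EFNA2: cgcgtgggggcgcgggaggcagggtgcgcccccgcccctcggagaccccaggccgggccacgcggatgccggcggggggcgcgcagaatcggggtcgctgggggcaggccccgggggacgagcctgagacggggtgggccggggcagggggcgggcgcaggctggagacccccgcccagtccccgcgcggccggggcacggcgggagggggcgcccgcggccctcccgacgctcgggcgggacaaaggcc
EFNA5: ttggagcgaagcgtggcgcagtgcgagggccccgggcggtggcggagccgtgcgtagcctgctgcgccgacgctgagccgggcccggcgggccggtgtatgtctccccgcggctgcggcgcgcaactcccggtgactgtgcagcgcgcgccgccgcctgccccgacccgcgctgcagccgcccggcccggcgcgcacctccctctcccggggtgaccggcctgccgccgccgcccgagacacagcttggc

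The last 23 bases of the EFNA1 promoter lay in a peak, and none of the bases of the other 4 promoters did. The nearest peak was 250 bp from the EFNA5 promoter and 9743 bp from that of EFNA2. All but the EFNA4 promoter were richer in G and C than the median promoter. The GC content was 84.0% at EFNA2, 79.6% at EFNA5, 73.2% at EFNA1, 67.6% at EFNA3 and 58.4% at EFNA4, against a median of 62.0% over 22078 windows of protein-coding genes. EFNA2, the member with no peak near its start, had the promoter highest in GC, at percentile 99.3. EFNA5, with peaks on both sides of its promoter, was at percentile 95.8. A link between GC content and peaks was not tested. Windows of 300 bases, which reach 50 bases past the start, were read on both strands for the letters TAATCC and TAATCT, and the 5 members held neither. Either occurred in 10.6% of all such windows, so the letters are rare in this stretch, and the search did not reach the peaks farther away.

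For each peak the authors give the pileup at its summit, the fold enrichment, which sets that pileup against the local input, and the significance as −log10 q. The pileup was read back as whole fragments, with exact Poisson 95% intervals that cover counting error only. The ChIP library held 61259377 fragments and the input library 22521186 after duplicates were removed, and the median peak of the list had 53 fragments, a fold enrichment of 6.10 and a local input of 5.00. The local input is in units of the scaled pileup and could not fall below 3.99. At that floor the fold enrichment is taken over the background of the whole genome.

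A peak in the TSS window, which covers 5 kb before and 2 kb after the 5′ end of the gene record, was present at 4 of the 5 ephrin A genes. Among all protein-coding genes 57.2% had one, so 4 of 5 is not a result particular to the family. EFNA5 had 3 such peaks, EFNA1 had 2, EFNA3 and EFNA4 had 1 each, and EFNA2 had 0. A peak with a fold enrichment of at least 5 was found at EFNA5, EFNA3 and EFNA1, against 38.5% of genes, and one of at least 10 at EFNA5 and EFNA3, against 13.6% of genes. A peak that covered the start itself was found at EFNA1 alone of the members, against 30.7% of genes.

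The order of the members by their strongest TSS window peak was EFNA5, EFNA3, EFNA1 and EFNA4. The EFNA5 peak (chr5:107673581-107674012, summit 2857 bp upstream) had 75 fragments (95% interval 59.0 to 94.0) and a fold enrichment of 11.1. The EFNA3 peak (chr1:155074530-155075117, summit 3910 bp upstream) had 67 fragments (51.9 to 85.1) and a fold enrichment of 10.1. Both of these lay some way upstream of the start, not on it. The EFNA1 peak (chr1:155127853-155128325) had its summit 176 bp downstream of the start, in coding exon 1, 43 fragments (31.1 to 57.9) high and 5.94-fold enriched. The EFNA4 peak (chr1:155061467-155061756) had 32 fragments (21.9 to 45.2) and a fold enrichment of 4.09. Its summit, 2103 bp upstream of EFNA4, lay in intron 20 of ADAM15, which encodes a membrane metalloproteinase, so this peak lies inside another gene. The fragment intervals overlapped between each neighbouring pair in this order, and those of EFNA5 and EFNA1 did not overlap. They compare heights only and carry no error of the fold. The order depended on the window. Within 1 kb on either side of the start, EFNA1 kept its 5.94 and stood above EFNA5 with 4.33, and EFNA3 and EFNA4 had no peak.

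EFNA5, an ephrin studied for its part in topographic mapping of axons, had its strongest peaks away from its promoter. Its record spans 294 kb on the minus strand of chromosome 5 (107376894 to 107670937), and no other protein-coding gene starts within 50 kb of it. The 48 peaks of this locus amount to 122 per Mb, against 50.1 per Mb on chromosome 5 and a median of 51.2 per Mb over the loci of all protein-coding genes built in the same way. This density lay at percentile 93.9 of those loci. Fold enrichments ran from 2.64 to 29.4 with a median of 7.32, and 31 of the 48 peaks were above the median of the whole list. Heights ran from 18 to 356 fragments with a median of 67.5. The locus was therefore both denser in peaks and higher in fold than the typical gene locus, although its length gives it more chances of a high maximum.

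Around the EFNA5 start the peaks were well below the strongest ones inside the gene. The peak in coding exon 1 (chr5:107670249-107670688, summit 430 bp downstream) had 34 fragments (23.5 to 47.5) and a fold enrichment of 4.33. The peak 1274 bp upstream had 35 fragments and a fold enrichment of 2.97, at percentile 5.38 of the list. The strongest of this group, 2857 bp upstream, stood at percentile 77.6.

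Of the 48 peaks, 30 had their summit in intron 1, which is 243 kb long and separates the exon with the start codon from the exons for the receptor-binding domain. The whole locus is 394 kb long, so the count in intron 1 goes with its length. Intron 1 had 123 peaks per Mb, close to the 122 per Mb of the whole locus. The median was 57.9 per Mb in 467 first introns of at least 100 kb, where intron 1 lay at percentile 87.6. The 3 peaks of the highest fold enrichment at the locus were all in intron 1. The first (chr5:107574026-107574892, summit 96.4 kb downstream of the start) had 245 fragments (215 to 278) and a fold enrichment of 29.4. The second (chr5:107576042-107577062, summit 94.6 kb downstream) had 255 fragments (225 to 288) and a fold enrichment of 28.9. These neighbours were near equal in height and fold, and stood at percentiles 98.3 and 98.2 of all peaks. They were picked as the highest of the locus, which favours such ranks. Among the highest folds of those 467 introns, the 29.4 stood at percentile 83.3, with a median of 19.4. Among the highest folds of all protein-coding gene loci it stood at percentile 88.7. The third (chr5:107481982-107483905, 188 kb downstream) was the tallest and the longest of the locus, at 356 fragments (320 to 395) and 1924 bp, and was 26.3-fold enriched. Its interval lies above those of the other peaks, while its fold is lower because it is divided by a local input at percentile 89.3 of the list, against percentiles 57.5 and 60.1. The densest 20 kb of the locus, from 107557921 to 107578016, held 8 peaks, and the first and second of these peaks were among them.

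The peaks were not spread evenly along EFNA5. The first stretch of intron 1 was sparse, with 1 peak at 17.1 kb from the start (fold enrichment 6.87) and then a gap of 39.7 kb between summits, the widest of the locus. From exon 2 to the end of the record there were 5 peaks, with fold enrichments from 3.29 to 10.4. The 50 kb downstream of the record held 9 peaks with fold enrichments of up to 24.6, which is 180 per Mb, and the 50 kb upstream held 3. Of the 6 peaks of at least 20-fold at the locus, 4 were in the 243 kb of intron 1 and 2 in the 50 kb of the downstream flank. The nearest protein-coding start to each of these 6 peaks was that of EFNA5 itself, even at 323 kb.

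**Figure D1:**
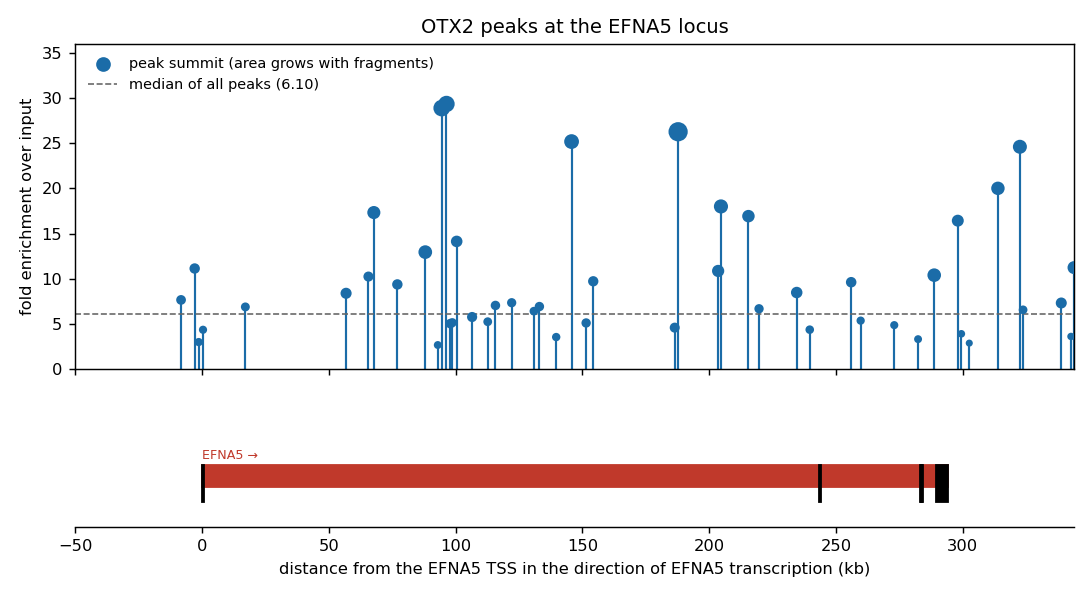
Each stem is an OTX2 peak, at its summit's distance in kb from the EFNA5 start (positive values run into the gene) and with its fold enrichment over input as height. The area of each point grows with its fragments. The lower panel shows the gene record in red with its exons in black. The 3 tallest stems, 26.3 to 29.4, stand in intron 1, while the 4.33 peak of exon 1 is below the dashed median of 6.10.

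EFNA4, EFNA3 and EFNA1 stand in tandem on the plus strand of chromosome 1 from 155063737 to 155134899, with 11 protein-coding starts in the lengthened locus of 171 kb. The locus was as dense in peaks as that of EFNA5, with 21 peaks or 123 per Mb, at percentile 94.1 of gene loci, and against 54.9 per Mb on chromosome 1. The peaks themselves were weak. Fold enrichments ran from 2.24 to 10.1 with a median of 4.27, which lay at percentile 10.0 of the medians over gene loci, and 3 of the 21 peaks were above the median of the whole list. With peaks of at least 5-fold alone, 7 peaks were left here, or 40.9 per Mb, against 37 peaks and 93.9 per Mb at EFNA5. The local input was higher than in most of the list, with a median of 6.32 and a highest value of 19.0. The local input is the denominator of the fold enrichment, but the lowest folds did not lie over the highest local inputs. The peak with the local input of 19.0 was 4.50-fold enriched. Peaks of 2.99-fold and 3.27-fold had local inputs of 5.00 and 5.38, below the median of the cluster. In the other direction, the highest fold, 10.1, lay over a local input of 3.99. The part of the local input in the low folds was not tested. The heights alone were also low, with a median of 45 fragments (range 23 to 122) against 53 in the list.

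The strongest peak of the cluster was the one between EFNA4 and EFNA3 already given for EFNA3. It lies outside both genes but in intron 1 of the annotated EFNA4-EFNA3 readthrough gene, and its local input was at the floor. The second by fold was in intron 1 of EFNA1 (chr1:155129933-155130383), 2307 bp downstream of the start and thus just beyond the TSS window, 51 fragments (38.0 to 67.1) high and 7.07-fold enriched. EFNA1 so had 3 peaks in its record of 7.02 kb, in exon 1 and intron 1, and the weakest of them, 1100 bp downstream, was 2.24-fold enriched at a −log10 q of 1.42, near the limit of the list. The third (chr1:155036133-155036831) was in intron 4 of DCST1, a gene for a membrane protein, 27.1 kb upstream of EFNA4, 122 fragments high (101 to 146) and 6.48-fold enriched over a local input of 13.0.

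In EFNA3 the only peak of the record was in intron 1 (chr1:155084777-155085520, 6067 bp downstream of the start). It was one of the tallest in the cluster, with 121 fragments (100.4 to 145), yet its fold enrichment was 4.50, because the local input of 19.0 was at percentile 99.6 of the list. EFNA4 had no peak in its record of 5.82 kb. Between the end of EFNA3 and the start of EFNA1, 40.3 kb apart, there were 4 peaks, with fold enrichments from 3.27 to 4.44. The cluster thus held many low peaks, and none of 20-fold or more. Its highest fold stood at percentile 30.5 among the highest folds of all protein-coding gene loci.

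**Figure D2:**
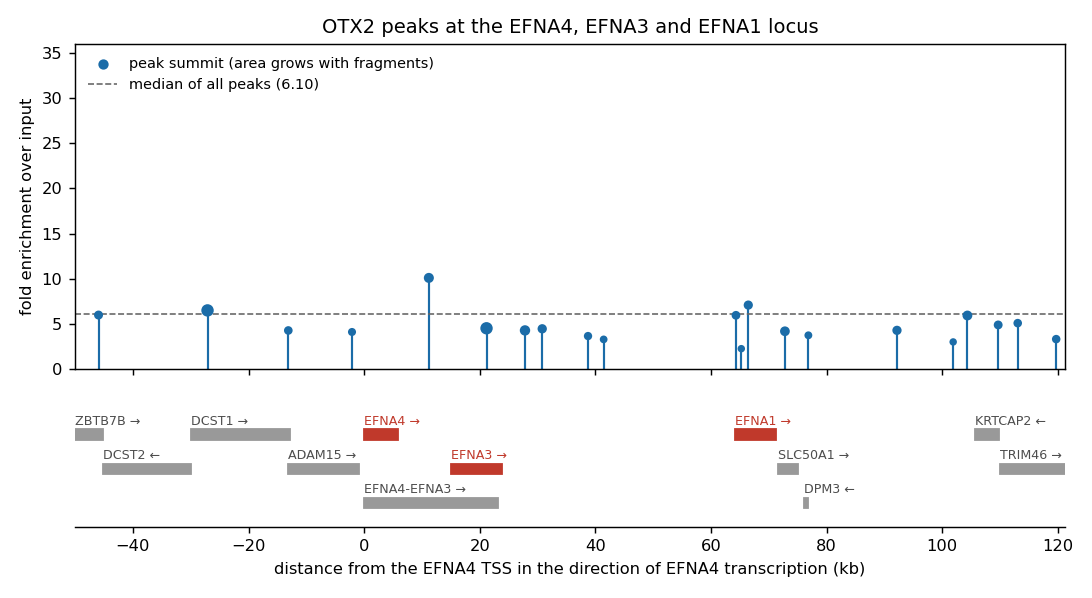
OTX2 peaks of the chromosome 1 cluster are drawn by distance in kb from the EFNA4 start and by fold enrichment over input, on the same vertical scale as for EFNA5, with points again sized by fragments. Protein-coding records are below, with ephrin A genes in red. Of the 21 stems, 3 rise above the dashed median of 6.10, and the tallest, 10.1, stands between EFNA4 and EFNA3.

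EFNA2, which is a ligand for EPHA receptors in retinal mapping like EFNA5, had no peak in the gene and a strong one far away. Its record of 15.6 kb on the plus strand of chromosome 19 (1285873 to 1301431) held 0 peaks. In the records, 3 of the 5 members had a peak, against 69.5% of protein-coding genes, and a longer record has more room for one. The nearest peak ended 9.99 kb upstream of the EFNA2 start. It sat at the start of FAM174C, with its summit 119 bp upstream of that gene, 50 fragments and a fold enrichment of 4.20. Between this summit and the next one downstream of EFNA2 lay 35.6 kb without a summit. The locus as a whole was ordinary in density, with 7 peaks or 60.6 per Mb at percentile 59.5.

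The peak of the highest fold enrichment at any ephrin A locus was at the far end of this one (chr19:1346332-1347379), 60.9 kb downstream of the EFNA2 start, with 230 fragments (201 to 262). Its fold enrichment was 34.1, and its −log10 q was 203. It stood at percentile 99.2 of all peaks, and at percentile 94.1 among the highest folds of all protein-coding gene loci. The closest protein-coding start was that of PWWP3A, 7936 bp away, so its place in the locus follows from the width of the window. The second (chr19:1310704-1311358), 25.2 kb downstream of the EFNA2 start and nearer to it than to any other protein-coding start, had 111 fragments (91.3 to 134) and a fold enrichment of 16.6. The local input of both was at the floor. The third (chr19:1269083-1269478), in the record of CIRBP, which encodes a cold-inducible RNA-binding protein, had 61 fragments (46.7 to 78.4) and a fold enrichment of 7.18. The single-gene loci of EFNA2 and EFNA5 each held a peak of at least 20-fold, against 33.1% of the loci of all protein-coding genes.

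**Figure D3:**
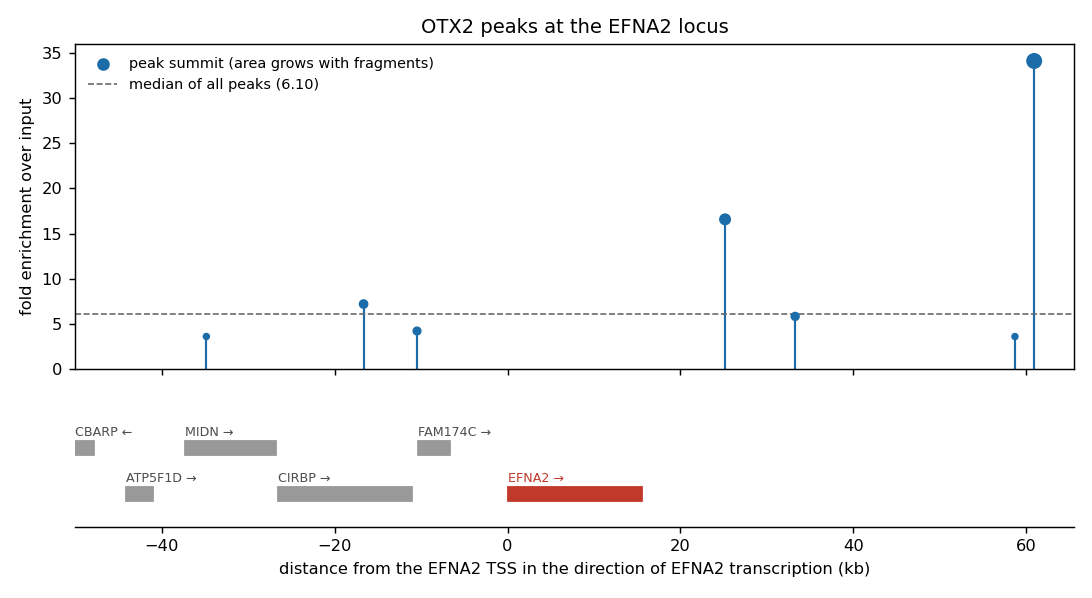
OTX2 peaks at the EFNA2 locus are drawn by distance in kb from the EFNA2 start and by fold enrichment over input, with point area by fragments and protein-coding records below. The record of EFNA2, in red, holds 0 peaks, and the highest stem, 34.1, stands 60.9 kb from the start at the edge of the locus.

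Peaks per Mb in the 5 single-gene loci were 149 at EFNA1, 122 at EFNA5, 120 at EFNA3, 94.5 at EFNA4 and 60.6 at EFNA2, all above the median of 51.2. The loci of EFNA4, EFNA3 and EFNA1 overlap and share peaks, so these are not separate observations. The median fold enrichment was 4.27 at EFNA1, 4.26 at EFNA3, 4.35 at EFNA4, 5.81 at EFNA2 and 7.32 at EFNA5. The median over all gene loci was 5.85, so EFNA5 was above it and the chromosome 1 genes below it, while EFNA2 was close to it.

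**Figure D4:**
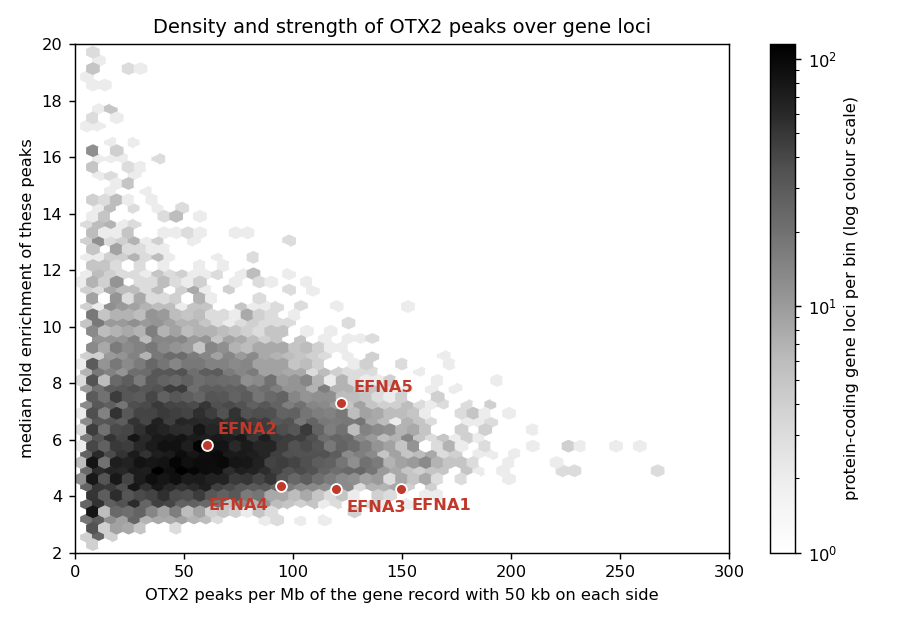
Grey shading counts protein-coding gene loci by their OTX2 peaks per Mb and the median fold enrichment of those peaks. Of the 18706 loci with a peak, 62 lie beyond the axes. Red points mark the ephrin A genes. EFNA1, EFNA3 and EFNA4 lie low, between 4.26 and 4.35, and EFNA5 stands at 7.32.

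The receptors, the B-type ligands and the signalling partners were examined in the same TSS window. Of 35 listed genes 24 had a peak, again beside the 57.2% of all protein-coding genes. Among the receptors for ephrin A ligands, 6 of 9 EPHA genes had one, with a highest fold enrichment of 8.31 at EPHA7. Among the EPHB receptors it was 3 of 5, with at most 8.38 at EPHB3, and among the ephrin B ligands 2 of 3, with at most 4.62 at EFNB1. None of these 17 genes reached 10-fold, beside 13.6% of all protein-coding genes, and a difference from the ephrin A ligands was not tested. The effectors that act below EPHA receptors had a peak at 11 of 14 genes, with 21.9 at CHN1, which encodes a Rac GTPase-activating protein, and 14.9 at SIPA1L1. Of these 14 effectors 5 reached 10-fold, and of the 5 ephrin A ligands 2 did, so this level was not particular to the ligands. The CHN1 summit lay 5666 bp upstream, so that peak reached the window only with its edge. ADAM10, a protease that sheds ephrins, had 2 peaks, of which the higher had 4.59. Of the partners in reverse signalling NGFR alone had a peak, with 4.58, and NTRK2 and RET had 0. These counts describe 1 library and were not tested.

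In the order of all 40 genes by this maximum, EFNA5 was number 6 and EFNA3 number 7. Directly above EFNA5, and tied with the exchange factor gene NGEF, was RHOA, a small GTPase that drives growth cone collapse, with 11.4 and 76 fragments, and below EFNA3 was VAV3, an exchange factor for such GTPases, with 9.48 and 76 fragments. EFNA1, number 13, stood between the kinase gene SRC (6.39) and EPHA2 (5.07), a receptor that EFNA1 binds. EFNA4, number 22, stood between EPHA4 (4.13) and the adaptor gene NCK1 (3.87). The fragment intervals of each member overlapped those of its neighbours in this order. These intervals leave out the local input, so they do not show whether the fold ranks can be told apart. EFNA2 was one of 12 listed genes with no peak in the window. Over the lengthened loci, the median density of the 5 ephrin A genes was 120 peaks per Mb (60.6 to 149). It was 44.3 (0 to 113) for the EPHA receptors and 44.9 (0 to 130) for all 35 other genes of the list. The loci of EFNA4, EFNA3 and EFNA1 overlap and share peaks, so the median of 120 does not rest on 5 separate loci. With peaks of at least 5-fold alone, the density was 93.9 at EFNA5, 40.9 at the chromosome 1 locus and 34.6 at EFNA2. The other listed genes were not counted at that limit, and the difference was not tested. The ephrin A genes other than EFNA5 are short, so their loci consist mostly of the flanks and neighbouring genes.

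**Figure D5:**
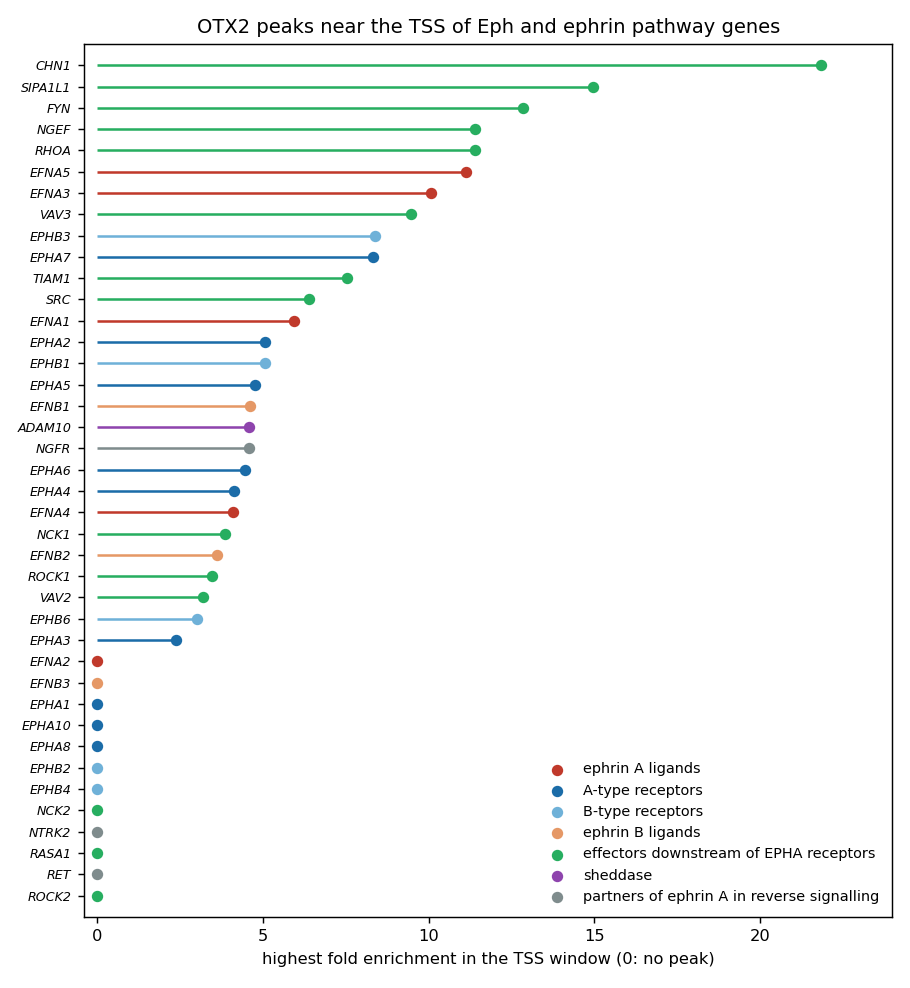
Points give the highest fold enrichment of an OTX2 peak in the TSS window of each of 40 Eph and ephrin pathway genes, coloured by role, with 0 for no peak. The red ephrin A points are spread along the order, from 11.1 at EFNA5 and 10.1 at EFNA3 to 0 at EFNA2.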

How the data were processed

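OTX2 ChIP and input DNA of D283 tumorspheres were sequenced, 1 library each. Mapping by the authors used Bowtie2 2.2.4 and GRCh38. Their peaks come from MACS2 2.1.0.20140616 with a q-value cutoff of 0.05 and 1 fragment kept per position. Their methods describe masking of blacklisted regions, but the 137412 deposited peaks are numbered without gaps, so whether this list was masked is not known. In the deposited list the pileup is a signal (fragment coverage, scaled in peak calling by 2 times the input over the ChIP fragments, or 0.735 per fragment, by which 100% of pileups came out whole within 0.02 fragments). Fold enrichment, as deposited, is the ratio of pileup to local input, each with 1 added. The authors give significance as −log10 q, and their −log10 p was not used. The local input was solved from that ratio.

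GRCh38 gene positions were the original exon positions kept in the GRCh37 annotation of GENCODE 44. No coordinates were converted. Peaks overlapped a window by at least 1 bp. Promoter sequences came from RefSeq (all 5 members matched), and sequence under distant peaks was not analysed here. Named were the members, the 3 peaks of the highest fold enrichment per locus with any gene starting within 1 kb of their summits, and the pathway genes next to each member in order. The FAM174C peak, the EFNA3 intron peak, the other EFNA5 peaks and the pathway genes not next to a member were chosen after their values were seen. ADAM15, DCST1 and CIRBP were named because a described summit lies in them, and PWWP3A because its start is the nearest to one. The members and lists were chosen with earlier results of these data known. No test was made. Window counting was checked on artificial peaks, where 200 of 200 genes given a peak were found. Tables were handled in pandas 2.3.3 and numpy 2.4.6 under Python 3.11.15, intervals computed in scipy 1.17.1, and plots drawn in matplotlib 3.10.9.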

Additional observations from a re-analysis of the deposited data

How the results depend on the processing

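No paired analysis was possible because each group is a single library. Among peaks enriched 5-fold or more, the chromosome 1 locus kept 7 peaks, EFNA2 kept 4, the listed pathway genes with a TSS window peak numbered 12, and 38.5% of protein-coding genes had one. That share became 52.0% when −log10 q had to reach 5, 56.3% when the window had to hold the summit, 66.6% when all transcript starts counted and 46.9% in a window of 1 kb on either side. In the last setting 2 ephrin A genes, EFNA1 and EFNA5, had a peak. With an extension of 20 kb the chromosome 1 locus had 13 peaks and EFNA2 4, and with 100 kb they had 34 and 17, by construction of the wider window. Counts at EFNA5 ranged from 37 to 52 peaks. RefSeq gene records, chosen after seeing the data, gave 4 ephrin A genes and 23 of the 31 pathway genes they could be applied to. The share of all protein-coding genes is not given for these records, so both counts lack a background. At 26.4% of all peaks the local input was at its floor, so their folds rest on no local measurement above the background.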
